A study of Homo sapiens with 39 samples.

Results

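Clones of the human melanoma cell line WM115 that carry a deletion called R1 were compared with clones of the same line that carry a deletion called R4. Per the labels, each deletion removes a stretch of an enhancer of SOX10, and the labels give neither the coordinates nor the size of either region. The comparison used 14 of the 39 RNA-seq libraries of the series. These were 8 libraries with the genotype R1_del, of which 5 came from clone 1.1 and 3 from clone 1.2, and 6 libraries with the genotype R4_del, 3 each from clones 4.1 and 4.2. All of these cells carry a deletion, so no library here is unedited: wild-type WM115 cells were not used, and neither was clone 1.3, whose title and genotype label name different regions. A clone is 1 instance of its deletion, and its libraries repeat that clone. The labels do not say whether the libraries of a clone came from separate cultures, so p-values over libraries measure only the spread between libraries of these 4 clones. Genes were sought for which both R1 clones lay on the same side of both R4 clones.

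SOX10 is a transcription factor of the neural crest, the embryonic cell population from which melanocytes and peripheral glia arise, and most melanomas still express it. In melanocytes SOX10 activates MITF, and both factors then bind near genes for melanin synthesis and for the melanosome, the organelle in which pigment is made. MITF recognises the M-box, a short DNA word often found near the start of pigment genes. Melanoma cells with little MITF often show other programmes, among them neural crest-like, undifferentiated and inflammatory ones, and the last of these is commonly tied to the transcription factor NF-kB.

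The stretches of 250 bases before the start of TYRP1, SLC24A5 and GPNMB, which were higher in the R1 clones, and of CXCL8 and LCN2, which were higher in the R4 clones, are shown because they hold the words looked for: capitals mark the M-box TCATGTG in the first 3 and the NF-kB word GGNNNTTCC in the last 2, on either strand. All are from RefSeq on GRCh38.p14, 5′ to 3′ on the plus strand, on which these 5 genes lie, at chr9:12693135-12693384, chr15:48120740-48120989, chr7:23246525-23246774, chr4:73740319-73740568 and chr9:128149203-128149452.
TYRP1: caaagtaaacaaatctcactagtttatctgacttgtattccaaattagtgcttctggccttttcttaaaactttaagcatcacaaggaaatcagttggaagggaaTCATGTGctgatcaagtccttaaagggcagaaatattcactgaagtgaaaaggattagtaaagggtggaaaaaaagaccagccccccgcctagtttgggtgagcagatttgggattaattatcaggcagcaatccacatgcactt
SLC24A5: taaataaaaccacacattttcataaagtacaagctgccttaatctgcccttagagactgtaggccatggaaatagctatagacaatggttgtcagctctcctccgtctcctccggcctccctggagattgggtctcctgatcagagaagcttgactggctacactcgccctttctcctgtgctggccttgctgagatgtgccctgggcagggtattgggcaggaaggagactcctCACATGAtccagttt
GPNMB: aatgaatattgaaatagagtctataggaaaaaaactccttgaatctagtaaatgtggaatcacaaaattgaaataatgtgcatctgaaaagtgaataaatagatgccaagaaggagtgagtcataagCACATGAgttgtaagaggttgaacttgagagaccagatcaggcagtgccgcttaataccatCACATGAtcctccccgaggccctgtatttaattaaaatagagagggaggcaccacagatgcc
CXCL8: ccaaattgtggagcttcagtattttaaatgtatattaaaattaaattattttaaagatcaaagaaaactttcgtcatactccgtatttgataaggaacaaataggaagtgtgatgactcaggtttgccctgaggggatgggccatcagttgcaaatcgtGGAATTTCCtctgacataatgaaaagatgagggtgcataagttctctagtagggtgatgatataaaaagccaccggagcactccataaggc
LCN2: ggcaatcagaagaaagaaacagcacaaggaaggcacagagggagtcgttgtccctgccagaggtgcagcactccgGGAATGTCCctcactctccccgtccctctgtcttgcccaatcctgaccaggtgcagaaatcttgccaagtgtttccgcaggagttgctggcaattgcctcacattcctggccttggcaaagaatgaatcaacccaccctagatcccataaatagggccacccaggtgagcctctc

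The M-box began 145 bases before the start of TYRP1 and 15 bases before that of SLC24A5, and GPNMB held it at 123 and 62 bases before its start. Of the 7 pigment-cell genes called higher in the R1 clones (named further on), 5 had a promoter in the RefSeq table, and 3 of these 5 held the M-box. Counted over promoters, that was 3 of 8, or 37.5%, against 2.52% of all 35116 promoters of the same length. The E-box CACGTG was in 0 of the 8 promoters and in 6.34% of all. The SOX word, ACAAAG or ACAATG, was in 25.0% of the 8, in 2 of the 4 promoters of inflammatory genes described next and in 21.2% of all. Of the 8 inflammatory genes called higher in the R4 clones, 4 had a promoter in the table, and the NF-kB word was in 3 of these 4 (CXCL8, CCL20 and LCN2), against 12.5% of the 8 promoters of pigment-cell genes and 17.1% of all promoters. The NF-kB word was chosen after the calls had been seen. A match is a word in the sequence and no measure of binding. Members of the same lists that were not called were not counted. These shares therefore cannot tell called genes from the rest of their lists.

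Expression is given in TPM, a share of all transcripts of a library that is corrected for gene length. Read counts are not given, so depth is unknown and a value of 0 is described as listed at 0. Each library listed between 14084 and 15525 genes at 1 TPM or more. The mitochondrial share of all TPM ran from 4.71% to 14.4%, and both clones of each region had libraries above 7.5%, which was passed by all 3 libraries of clone 1.2. Libraries of clones 1.1, 4.1 and 4.2 correlated within their clone at a Pearson r of 0.971 or more on the log scale, and the libraries of clone 1.2 at 0.939 or more. Library 3 of clone 1.2 stood apart: in libraries 1, 2 and 3 of that clone SOX10 was 279, 272 and 9.56 TPM, and S100B, a marker of glial and melanocytic cells, was 295, 319 and 4.87 TPM. The values of a clone are given in this order of libraries throughout. Where leaving out this library ended or made the call of a gene described here, this is stated.

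Of 16275 genes tested, 5675 (34.9%) had both R1 clone means on one side of both R4 clone means on the log2(TPM + 1) scale, 3224 of them (19.8%) higher in R1 and 2451 (15.1%) higher in R4. A gene was called when limma also gave a Benjamini-Hochberg adjusted p under 0.05 over the 14 libraries and the nearest R1 and R4 clone means lay at least 1 log2 unit apart, a distance called the gap here. Differences on this scale understate the change of genes at low TPM. This left 185 genes (1.14%), of which 61 (0.375%) were higher in R1 and 124 (0.762%) higher in R4. In 131 of the 185, all 8 R1 libraries lay on one side of all 6 R4 libraries, and 146 were protein-coding. Across all genes tested, all R1 libraries lay above all R4 libraries in 2.02% and below them in 2.14%. With separation and the adjusted p but no minimum gap, 1681 genes (10.3%) were higher in R1 and 1458 (8.96%) higher in R4. Without library 3 of clone 1.2 the calls were 85 higher in R1 (0.531%) and 92 higher in R4 (0.575%) of 15995 genes, 148 of the 185 among them. Without library 2 of clone 1.2 they were 38 (0.237%) and 116 (0.724%) of 16021 genes. The genes nearest to the threshold were ZNF726 (gap 1.01) and TDRD7 (1.01), just inside, and BCAS3 (0.99) and AP005229.1 (0.97), just outside, on the R1 side.

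**Figure D1:**
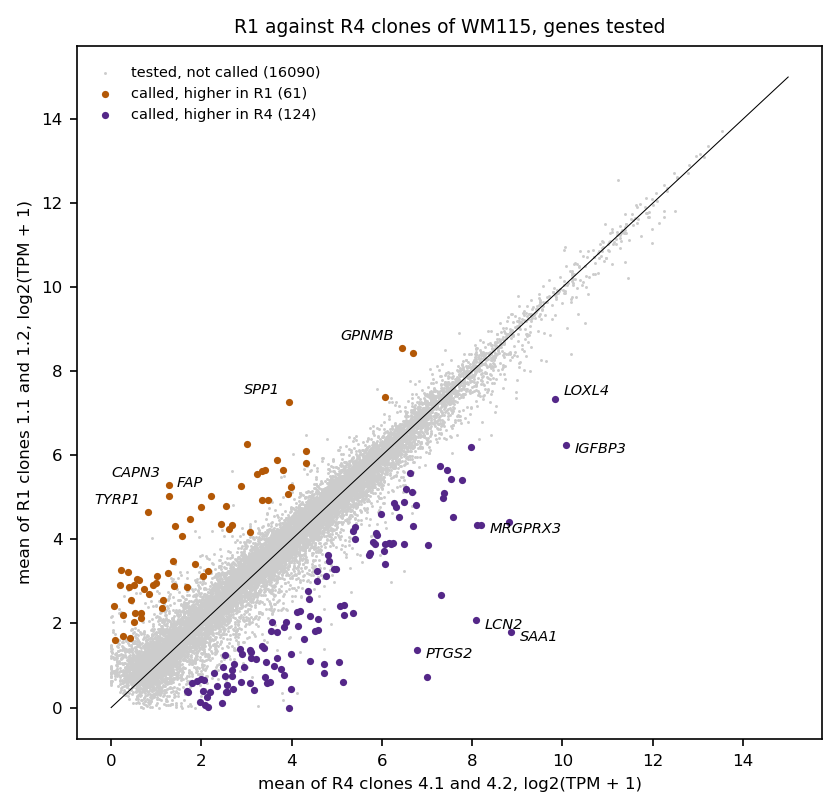
Mean expression of the 16275 genes tested in the R4 clones (horizontal axis) and in the R1 clones (vertical axis), both as log2(TPM + 1) averaged over 2 clone means. Orange points are the 61 genes called higher in R1, among them CAPN3, TYRP1 and GPNMB, purple points the 124 genes called higher in R4, among them IGFBP3, SAA1 and PTGS2, and the line marks equal levels.

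The R1 clones differed from each other in more genes than either differed from an R4 clone. With the call set at an adjusted p under 0.05 (limma) and a log2 difference of at least 1 in size, the 4 pairs of an R1 and an R4 clone gave 1273 genes (7.82% of those tested, 1.1 and 4.1), 1022 (6.28%, 1.1 and 4.2), 1668 (10.2%, 1.2 and 4.1) and 1357 (8.34%, 1.2 and 4.2). The R1 clones 1.1 and 1.2 differed in 1935 genes (11.9%), and the R4 clones 4.1 and 4.2 in 450 (2.76%). Pearson's r between clone means across genes, which are not independent replicates, was 0.940 for the R1 pair, 0.973 for the R4 pair and 0.941 to 0.962 for the mixed pairs. The pairs share clones and so are not separate comparisons. Of the 185 calls, 43 of 61 and 97 of 124 were also past this call in each of the 4 mixed pairs (0.264% and 0.596% of all genes). No other gene was. A gap of at least 1 already sets the size of the difference in all 4 pairs. Only the adjusted p of a pair, from the same fit and libraries, could fail, so this count is no separate support.

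SOX10 itself was not called. It lies at chr22:37970686-37987422 on the minus strand of GRCh38. SOX10 was at 482, 405, 420.0, 342 and 391 TPM in clone 1.1, 279, 272 and 9.56 in clone 1.2, 465, 360.0 and 389.6 in clone 4.1 and 506, 321 and 438 in clone 4.2. The R1 and R4 libraries overlapped, and the 3 lowest values were those of clone 1.2. The log2 difference, R1 minus R4, was -1.07 with a standard error (SE) of 0.58 (adjusted p = 0.196, limma), and -0.29 without library 3 of clone 1.2 (adjusted p = 0.093). The coding gene was not the target of either deletion, so its level does not check the genotypes. Of 24 tested genes listed around SOX10 none was called, and their median log2 difference was -0.24 (-0.09 without library 3 of clone 1.2) against 0.06 for all genes tested.

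MITF, the master regulator of pigment cell genes, was higher in the R1 clones in 7 of 8 libraries. Its values were 96.2, 51, 54.4, 55.6 and 98.1 TPM in clone 1.1 and 41.4, 88.4 and 6.16 in clone 1.2, against 11.2, 9.25 and 11.1 in clone 4.1 and 15.2, 15.8 and 18.3 in clone 4.2. Library 3 of clone 1.2 was below every R4 library, and the other R1 libraries were above all of them. The log2 difference was 1.69 ± 0.42 (SE, adjusted p = 0.00984, limma), with a gap of 0.79, short of the call. Without that library it was 2.21 and was called. SOX9, a relative of SOX10 that many melanomas with little SOX10 express, was listed at 0 in all 5 libraries of clone 1.1, at 18.1, 5.27 and 14.1 TPM in clone 1.2 and at no more than 0.130 TPM in any R4 library, so it separated clone 1.2 from the other 3 clones and not R1 from R4.

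**Figure D2:**
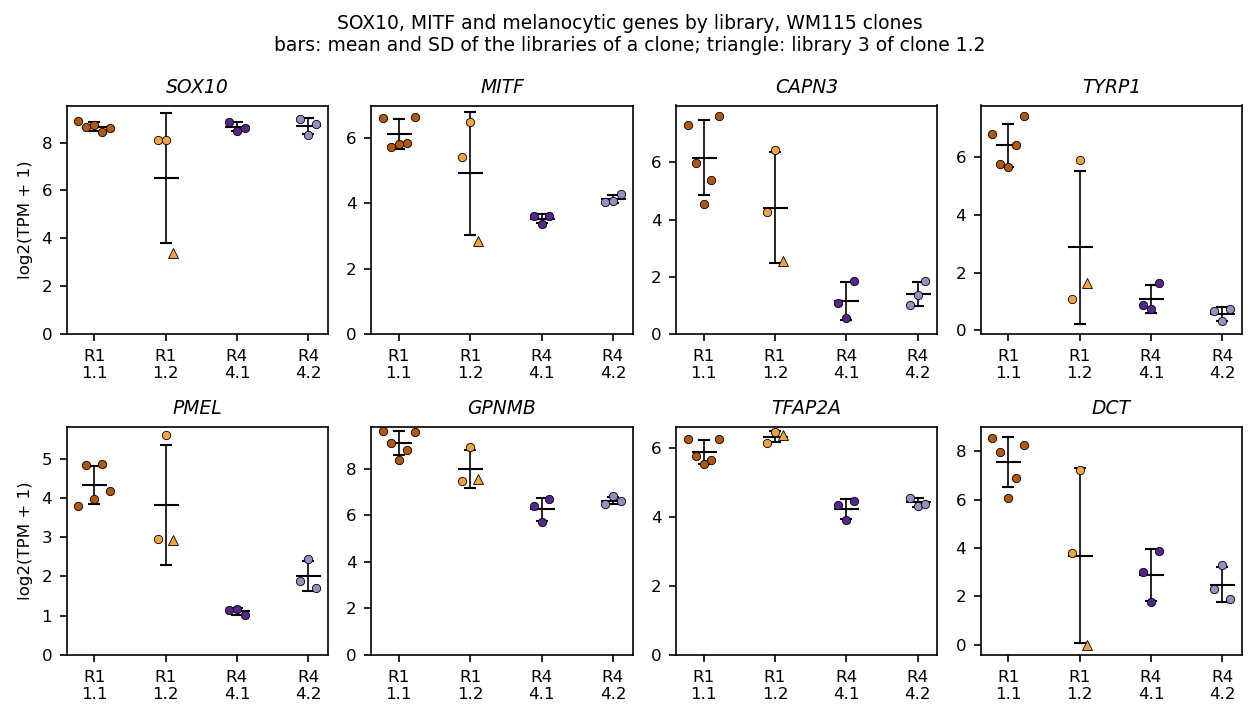
Expression of SOX10, MITF and 6 melanocytic genes in the 14 libraries as log2(TPM + 1), by clone, with orange for R1, purple for R4, bars for the mean and SD of a clone's libraries and a triangle for library 3 of clone 1.2. SOX10 overlaps between regions, CAPN3, GPNMB, PMEL and TFAP2A do not, and in clone 1.2 TYRP1 is high in library 2 alone.

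A few pigment genes were higher in the R1 clones. Of 16 genes of melanin synthesis and the melanosome, 14 were tested, and 3 were called higher in R1 (TYRP1, PMEL and SLC24A5) and 0 higher in R4, beside 0.375% and 0.762% of all genes. With the clone as a random effect in limma, which estimates the correlation between libraries of a clone, none of the 14 was called (adjusted p = 0.211, 0.126 and 0.503). The median log2 difference of the 14 was 0.70, and that of all genes tested 0.06. The list was not all in 1 direction. Without separation or a minimum gap, 8 of the 14 had an adjusted p under 0.05 (limma over libraries) towards R1 and 3 towards R4. Of all 16275 genes tested, 2366 and 1842 did. With clone 4.1 left out, 2 of the 14 were called higher in R1 and 1, GPR143, higher in R4 (0.722% and 1.34% of all genes). TYRP1, an enzyme of the melanosome membrane at chr9:12685439-12710290, was 112, 53.7, 49.4, 84.3 and 172 TPM in clone 1.1 and 1.1, 59.2 and 2.13 in clone 1.2. In the R4 clones it was 0.841, 0.672 and 2.09 (4.1) and 0.594, 0.234 and 0.648 (4.2). All of clone 1.1 and library 2 of clone 1.2 lay far above the R4 libraries, while library 1 of clone 1.2 lay below the highest of them, so the groups overlapped. The log2 difference was 3.82 ± 0.61 (SE, adjusted p = 0.000585, limma).

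PMEL builds the fibrils on which melanin is laid down. It was 12.8, 27.6, 14.7, 27.8 and 17.2 TPM in clone 1.1 and 6.75, 47.1 and 6.67 in clone 1.2, against 1.2, 1.27 and 1.02 in 4.1 and 2.71, 4.46 and 2.24 in 4.2, with no overlap between regions (log2 difference 2.52 ± 0.37, adjusted p = 0.000319, limma). SLC24A5, an ion exchanger of the pigment organelle, was 5.85 to 18.8 TPM in clone 1.1 and 19.5, 21 and 0.03 in clone 1.2, against 0.543 to 3.52 in the R4 libraries, which library 3 of clone 1.2 undercut (log2 difference 1.94 ± 0.57, adjusted p = 0.0222, limma). DCT, which acts beside TYRP1 in melanin synthesis, was chosen after its values were seen. It was 376, 249, 66.2, 119 and 309 TPM in clone 1.1, 13, 148 and 0 in clone 1.2, 7.08, 2.37 and 13.7 in 4.1 and 3.89, 8.72 and 2.71 in 4.2. DCT fell short of the call (gap 0.80) and was called without library 3 of clone 1.2, where the log2 difference was 3.85.

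MLANA and TYR, defining markers of melanocytes, were low in these cells. MLANA, also chosen after its values were seen, was 5.76, 6.04, 0.658, 5.15 and 6.85 TPM in clone 1.1, 1.51, 0.603 and 0 in clone 1.2 and 0.023 to 0.167 in the R4 libraries. TYR, which catalyses the first step to melanin, was at most 0.820 TPM in all libraries but library 1 of clone 1.2 (5.47, 0.82 and 0 in the order of the libraries), was listed at 0 in 5 of 6 R4 libraries and did not pass the filter. OCA2 was not tested either. The other markers of the labelled cell type, SOX10 and S100B, were at 272 to 779.5 TPM in every library except library 3 of clone 1.2.

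Among 22 other genes tied to melanocytes, 16 were tested, and 4 were called higher in R1 (CAPN3, ABCB5, TFAP2A and GPNMB) and 0 higher in R4 (0.375% and 0.762% of all genes), with a median log2 difference of 0.78. TFAP2A was still called with the clone as a random effect, and CAPN3 (adjusted p = 0.126), ABCB5 (0.315) and GPNMB (0.0878, limma) were not. CAPN3, a calcium-dependent protease with a form made in melanocytes, had the largest gap of all genes called higher in R1, at 3.02 log2 units. It lies at chr15:42359500-42412318 and was 157, 62.4, 22.2, 40.4 and 197 TPM in clone 1.1, 18.3, 85.9 and 4.84 in clone 1.2, 1.09, 0.474 and 2.64 in 4.1 and 1, 1.55 and 2.6 in 4.2. Its R1 and R4 libraries did not overlap, and its log2 difference was 4.01 ± 0.59 (SE, adjusted p = 0.000329, limma). TFAP2A, a transcription factor that works with MITF in pigment cells, was the steadiest of the 4. It was 74.7, 53, 45, 48.8 and 75.4 TPM in clone 1.1, 69.8, 87.2 and 81.1 in clone 1.2, 19.1, 14 and 20.8 in 4.1 and 22.5, 18.8 and 19.9 in 4.2 (log2 difference 1.78 ± 0.14, adjusted p = 2.21e-06, limma). All 3 libraries of clone 1.2 were high, the third among them, in which SOX10 and MITF were low.

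GPNMB, a glycoprotein of melanosomes and lysosomes, was 785, 546, 333, 450.1 and 764 TPM in clone 1.1 and 179, 486 and 186 in clone 1.2, and 51.3 to 112 over the 6 R4 libraries, with no overlap (log2 difference 2.09 ± 0.26, adjusted p = 0.000101, limma). ABCB5, a membrane transporter of pigment cells, was 13.9, 11.4, 2.61, 8.21 and 22.9 TPM in clone 1.1 and 0.788, 9.7 and 0 in clone 1.2, and at most 0.115 TPM in R4, where 3 of 6 libraries listed it at 0. Not every melanocytic gene went this way: BCL2A1, a survival factor, had clone means of 4.2 and 6.48 TPM in R1 and 20.2 and 9.44 in R4 (log2 difference -1.53, gap 0.95, not called), and it was called higher in R4 when the libraries were scaled by the median of ratios. EDNRB, ERBB3, IRF4 and MC1R, receptors and a regulator of the lineage, were not called.

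The pigment result rests on clone 1.1 and on part of clone 1.2. It also depends on how clone 1.3, whose title and genotype label name different regions, is treated. With clone 1.3 counted as R4, 0 of the 16275 genes tested were called higher in R1, so no pigment gene was. With clone 1.3 counted as R1, 52 genes were. Without library 2 of clone 1.2, none of the 14 melanin genes and 2 of the 16 others (CAPN3 and TFAP2A) were called higher in R1, while without library 3 the counts were 4 and 5. With clone 1.1 left out, 2 of 12 and 4 of 14 were called higher in R1, a setting in which 3.70% of all genes were (1.85% higher in R4), and the median of the second list was -0.18.

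Neural crest and glial genes did not follow the pigment genes. Of 25, 23 were tested, and 0 were called higher in R1 and 1 in R4, beside 0.375% and 0.762% of all genes. Their median log2 difference was -0.44 (-0.24 without library 3 of clone 1.2), and that of all genes tested 0.06. The gene called was EGR2 (adjusted p = 0.0984 with the clone as a random effect, limma), a regulator of myelinating glia, at 0.645 to 2.04 TPM in R1 and 2.61 to 7.17 in R4 without overlap. NGFR, a receptor that marks neural crest-like melanoma cells, was named after its values were seen and was 211, 291, 426, 302 and 175 TPM in clone 1.1, 48.6, 78.8 and 3.67 in clone 1.2, 346, 861 and 236 in 4.1 and 128, 191 and 299.6 in 4.2. It was lowest in clone 1.2, and clone 1.1 lay between the R4 clones.

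The other genes with the widest gaps on the R1 side had various roles. SPP1 (osteopontin, a secreted matrix protein) was 178, 279.9, 105, 299 and 307 TPM in clone 1.1, 79.96, 322 and 47.9 in clone 1.2, 8.62, 29.2 and 24.8 in 4.1 and 12, 13 and 8.2 in 4.2 (log2 difference 3.33 ± 0.41, adjusted p = 9.19e-05, limma). FAP, a surface protease best known from activated fibroblasts, was 21.3 to 50.3 TPM in clone 1.1 and 25.2 to 46.2 in clone 1.2, against 2.59 to 2.7 in 4.1 and 3.17 to 6.33 in 4.2 (log2 difference 2.82 ± 0.20, adjusted p = 1.09e-06, limma). Neither gene overlapped between regions. DMKN, a secreted protein of the epidermis, was higher in clone 1.2 (51.4, 43.4 and 65.4 TPM) than in clone 1.1 (13.4 to 27.8) and in both far above 4.1 (1.76, 3.03 and 4.32) and 4.2 (0.561, 0.311 and 0.664), with a log2 difference of 3.75 ± 0.19 (SE, adjusted p = 3.34e-08, limma).

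PLXND1, a receptor for semaphorins, was 22.9 to 72.2 TPM over the R1 libraries and 4.85 to 8.41 over the R4 libraries. PROS1, protein S, a cofactor of anticoagulation and a ligand of TAM receptors, was 23.3 to 33.7 TPM in clone 1.1, 9.66 to 19.4 in clone 1.2 and 1.06 to 3.78 in R4 (log2 difference 2.75 ± 0.16, adjusted p = 2.21e-07, limma). ACP5, an acid phosphatase, was 21.9 to 112 TPM in R1 and 5.58 to 13.1 in R4. VEPH1, SLC7A8 (an amino acid transporter), TUBB4A (a tubulin of neural tissue), the zinc finger gene ZNF720 and the long noncoding RNAs LINC00518 and AC110285.1 complete the 15 widest gaps on this side, which ran down from 3.02 to 1.72 log2 units. ZNF720 had the tightest separation of these: 6.95, 7.67, 9.35, 6.77 and 8.22 TPM in clone 1.1 and 7.49, 6.06 and 6.6 in clone 1.2, against 0.1, 0.341 and 0.247 in 4.1 and 0.719, 1.23 and 0.776 in 4.2 (log2 difference 2.43 ± 0.11, adjusted p = 1.38e-08, limma).

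Of 24 tested integrins and laminins, 1 was called higher in R1 (LAMA1) and 1 higher in R4 (ITGB3), and of 15 intermediate filaments 1 (NEFL) was called higher in R1, beside 0.375% and 0.762% of all genes. NEFL was still called with the clone as a random effect, and LAMA1 (adjusted p = 0.073) and ITGB3 (0.146, limma) were not. LAMA1, a laminin chain of basement membranes, was 74.2, 54.4, 44.7, 44.7 and 61.5 TPM in clone 1.1, 13.8, 29.6 and 4.06 in clone 1.2 and 2.19 to 4.19 in R4. Library 3 of clone 1.2 overlapped with clone 4.1. NEFL, the light neurofilament, was 69.1 to 93 TPM in clone 1.1, 21.8 to 45.4 in clone 1.2 and 4.96 to 15.8 in R4 without overlap. LGALS3 (galectin-3, a sugar-binding protein) was 612, 465, 315, 425 and 723 TPM in clone 1.1, 199, 346 and 211 in clone 1.2, 122, 107 and 98.3 in 4.1 and 97.9, 99.2 and 91 in 4.2, again without overlap (log2 difference 1.75 ± 0.18, adjusted p = 2.12e-05, limma). A further 3 calls were chosen after their values were seen. CD36, a fatty acid receptor, was at 178 to 536 TPM in clone 1.1, 20.2, 170.1 and 0.733 in clone 1.2 and 3.15 to 12.7 in R4, and library 3 of clone 1.2 was below all R4 libraries. LYST, a regulator of lysosome-related organelles, was at 22.5 to 111 TPM in R1 and 8.32 to 18 in R4. GREB1, known as an oestrogen-responsive gene and as a target of MITF, was at 4.66 to 10.7 in R1 and 0.262 to 1.61 in R4. With the clone as a random effect GREB1 was still called, and CD36 (adjusted p = 0.404) and LYST (0.15, limma) were not. For CD36, clone 1.2 was not called against clone 4.1 or 4.2 (adjusted p = 0.436 and 0.494, limma). Among other calls the same held for ABCB5 (0.171 and 0.212), SLC24A5 (0.0658 and 0.366) and AC110285.1 (0.0856 and 0.125, limma). SLC7A8 was not called in any of the 4 mixed pairs.

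Among the calls higher in the R4 clones were inflammatory genes, with the highest levels in clone 4.1. Of 27 genes of the inflammatory and NF-kB list, 25 were tested, and 8 were called higher in R4 (IL1B, CXCL8, CCL2, CCL20, SAA1, SAA2, LCN2 and LIF) and 0 higher in R1, beside 0.762% and 0.375% of all genes. Under the random effect only SAA1 and SAA2 were called, and the adjusted p (limma) was 0.0762 for IL1B, 0.197 for CXCL8, 0.144 for CCL2, 0.0574 for CCL20, 0.126 for LCN2 and 0.186 for LIF. The median log2 difference was -1.16, and -0.31 with clone 4.1 left out, when 7 of 24 were called higher in R4 and 1 higher in R1 (1.34% and 0.722% of all genes under that setting). SAA1, an acute-phase protein at chr11:18266174-18269977, was 2.4, 1.07, 0.554, 0.241 and 3.17 TPM in clone 1.1 and 22.6, 2.8 and 0.681 in clone 1.2. In the R4 clones it was 4935, 2246 and 3477 (4.1) and 83.7, 20.2 and 149 (4.2). Clone 4.1 stood far above clone 4.2, and library 1 of clone 1.2 was above the lowest library of 4.2. The log2 difference was -7.08 ± 0.57 (SE, adjusted p = 3.25e-06, limma), the largest in size of all named genes. Its neighbour SAA2, a near-identical copy whose reads may not be told apart from those of SAA1, was 0 to 4.53 TPM in R1, 1555, 669 and 975 in 4.1 and 15.9, 7.23 and 30.5 in 4.2.

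LCN2, an iron-scavenging secreted protein at chr9:128149071-128153455, was 4.12, 2.77, 1.99, 0.748 and 1.65 TPM in clone 1.1, 70.1, 1.74 and 0 in clone 1.2, 1308, 2022 and 1158 in 4.1 and 45.2, 18.3 and 146 in 4.2. Library 1 of clone 1.2 overlapped with clone 4.2, and the log2 difference was -6.01 ± 0.77 (SE, adjusted p = 0.000117, limma). CXCL8, the chemokine interleukin-8, was 24, 39.9, 38.7, 75.2 and 12.6 TPM in clone 1.1, 73.3, 5.27 and 2.9 in clone 1.2, 651, 313 and 708 in 4.1 and 73, 125 and 314 in 4.2 (log2 difference -3.76 ± 0.61, adjusted p = 0.000658, limma). Here the highest R1 libraries met the lowest library of 4.2. CCL20, a chemokine for lymphocytes, did not overlap: it was 0.163 to 2.63 TPM in R1, 23.6, 10.6 and 29.9 in 4.1 and 6.14, 6.92 and 7.62 in 4.2. LIF, a cytokine of the interleukin-6 family, was 27.1, 27.6, 33.3, 43.4 and 23.8 TPM in clone 1.1, 119.6, 23.9 and 10.1 in clone 1.2, 185, 177 and 179 in 4.1 and 116, 113 and 229 in 4.2 (log2 difference -2.35 ± 0.40, adjusted p = 0.000948, limma).

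**Figure D3:**
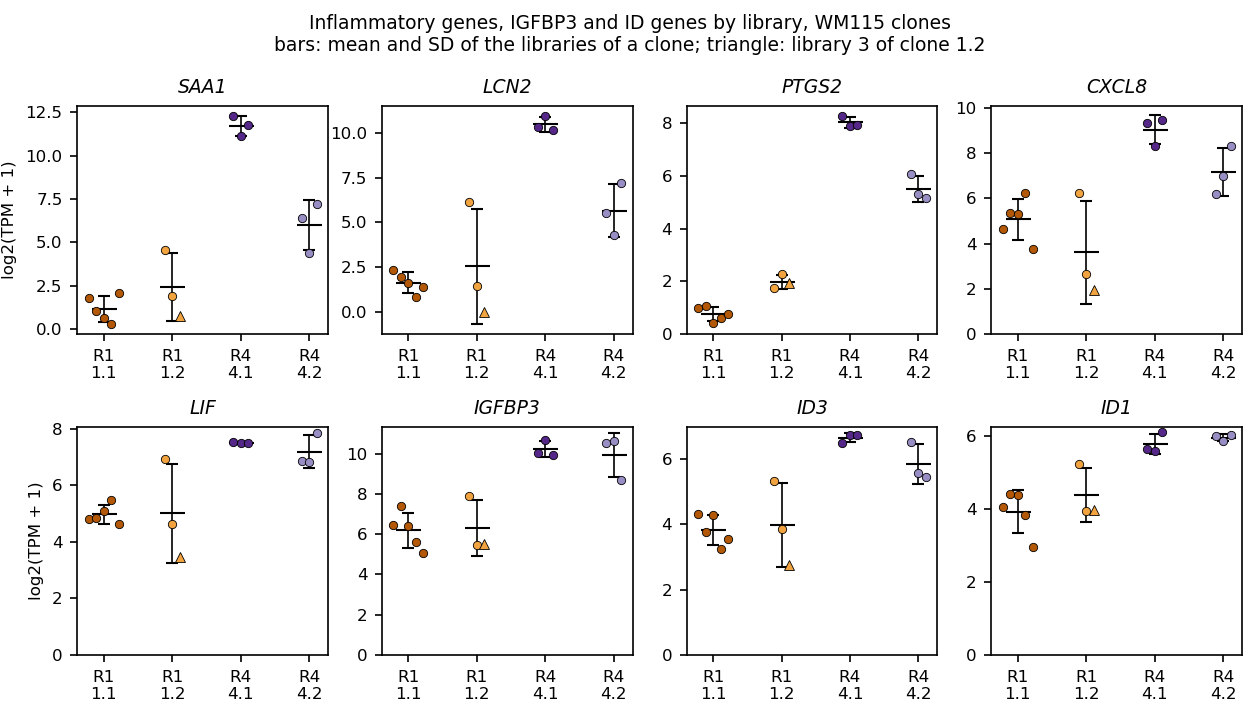
Expression of 5 inflammatory genes (SAA1, LCN2, PTGS2, CXCL8 and LIF), of IGFBP3 and of the transcriptional inhibitors ID3 and ID1 in the 14 libraries as log2(TPM + 1), by clone, with orange for R1, purple for R4, bars for the mean and SD of a clone's libraries and a triangle for library 3 of clone 1.2. SAA1 and LCN2 are highest in clone 4.1, IGFBP3 and ID1 reach like levels in both R4 clones, and library 1 of clone 1.2 is the highest of its clone for 7 of the 8 genes.

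IL6, C3 and IL1A, an interleukin, a complement protein and another interleukin, did not separate by region. IL6, chosen after its values were seen, was 0.145 to 1 TPM in clone 1.1, 158, 16 and 87.2 in clone 1.2, 5.49, 4.46 and 8.77 in 4.1 and 0.545, 0.556 and 2.77 in 4.2, so that clone 1.2 was the highest. C3 had clone means of 0.688 TPM (1.1), 76.3 (1.2), 303 (4.1) and 28.2 (4.2), and IL1A, a cytokine of the epidermis, was high in clone 4.1 alone, at 41.6 TPM against 1.08, 0.886 and 0.594. IL1B, called higher in R4, had clone means of 5.37 and 98.4 TPM in R1 and 1084 and 219 in R4. CCL2, a chemokine for monocytes, had means of 0.15 and 1.52 in R1 and 256 and 7.34 in R4. NFKB1, NFKB2, RELB, NFKBIA and TNFAIP3, components and inhibitors of the NF-kB pathway, were not called. CXCL1, a chemokine chosen after its values were seen, was also short of the call, at 8.06 to 36 TPM in clone 1.1, 27.9, 5.13 and 7.65 in 1.2, 134, 64.1 and 146 in 4.1 and 20.9, 18.2 and 77 in 4.2.

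PTGS2 (cyclooxygenase-2, which makes prostaglandins) was outside that list. At chr1:186671791-186680427, it was 0.989, 1.09, 0.324, 0.505 and 0.675 TPM in clone 1.1, 2.35, 3.8 and 2.81 in clone 1.2, 312, 236 and 245 in 4.1 and 67.3, 38.7 and 34.8 in 4.2. The R1 and R4 libraries did not overlap, clone 4.1 was again the highest, and the log2 difference was -5.41 ± 0.17 (SE, adjusted p = 1.71e-10, limma).

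IGFBP3, a secreted binding protein of insulin-like growth factors at chr7:45912245-45921874, had the widest gap of all calls, 3.65 log2 units. It was 87.4, 165, 83.2, 48.4 and 33 TPM in clone 1.1, 241, 43.2 and 45.1 in clone 1.2, 1036, 1622 and 981 in 4.1 and 1489, 1571 and 412 in 4.2. The R4 clones overlapped with each other and lay above every R1 library (log2 difference -3.83 ± 0.46, adjusted p = 8.05e-05, limma). IGFBP3 was the 1 gene called among 24 tested genes of the undifferentiated melanoma state, whose median log2 difference was -0.53. Of all genes, 0.762% were called higher in R4. Of the 24, 10 had both R4 clone means above both R1 clone means (15.1% of all genes did). None had both below (19.8% of all genes did). The sum of the 25 listed genes, IGFBP3 among them, was 1243 to 2403 TPM in the R1 libraries and 3038 to 4731 in the R4 libraries, without overlap. With the clone as a random effect the adjusted p of IGFBP3 was 0.057 (limma). AXL, a receptor kinase used to mark that state, had clone means of 155 and 149 TPM in R1 and 129.6 and 161 in R4 (log2 difference -0.02 ± 0.25, adjusted p = 0.958, limma). TNC, a matrix glycoprotein, was 575, 537, 549, 342 and 308 TPM in clone 1.1, 344, 277 and 86.5 in 1.2, 756, 848 and 651 in 4.1 and 1120.2, 778 and 680.4 in 4.2, without overlap, but its gap was 0.74. TGFBI, the other abundant member, was 265 to 844 TPM in R1 and 442 to 751 in R4.

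Among matrix glycoproteins and proteoglycans, 25 were tested, and 2 were called higher in R4 and 1, SPP1, higher in R1, with a median log2 difference of -0.36, beside 0.762% and 0.375% of all genes. FBLN1 was still called with the clone as a random effect, and CSPG4 (adjusted p = 0.332) and SPP1 (0.0682, limma) were not. FBLN1, a component of elastic fibres, was 28.9, 27.7, 19.5, 14.4 and 18.2 TPM in clone 1.1, 53, 22.7 and 10.1 in clone 1.2, 346, 344 and 224 in 4.1 and 173, 75.8 and 132 in 4.2, without overlap (log2 difference -3.05 ± 0.31, adjusted p = 2.21e-05, limma). CSPG4, a surface proteoglycan of melanoma, was 9.21 to 75 TPM in R1 and 79.8 to 128 in R4, and it lost its call without library 3 of clone 1.2. So did ITGB3, the beta-3 integrin chain, which was 31.8 to 169 TPM in R1 and 182 to 309 in R4. The sum of the 30 listed proteoglycans and glycoproteins was 5581 to 8627 TPM in the R1 libraries and 9373 to 14938 in the R4 libraries, without overlap.

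ID1 and ID3, inhibitors of basic helix-loop-helix factors and classical targets of BMP signalling, were higher in the R4 clones. ID3 was 19, 12.7, 18.5, 8.45 and 10.7 TPM in clone 1.1, 39.6, 13.5 and 5.82 in clone 1.2, 88.9, 105 and 106 in 4.1 and 91.9, 46.3 and 42.6 in 4.2. ID1 was 15.7, 20.3, 19.8, 13.2 and 6.78 TPM in clone 1.1, 36.3, 14.3 and 14.6 in clone 1.2, 48.5, 47.2 and 67.5 in 4.1 and 62.8, 56.7 and 63.6 in 4.2. Neither gene overlapped between regions, and the log2 differences were -2.34 ± 0.34 (SE, adjusted p = 0.000273) and -1.71 ± 0.25 (adjusted p = 0.0003, limma). ID2, chosen after its values were seen, was 13.9 to 27.3 TPM in clone 1.1, 1.92 to 7.85 in clone 1.2 and 12.8 to 20.9 in R4, low in clone 1.2 alone.

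The ligand BMP2 was the third of 20 tested BMP pathway genes called higher in R4, and 0 were called higher in R1 (0.762% and 0.375% of all genes, median log2 difference -0.17). Under a random clone effect none was called (adjusted p = 0.117 for ID1, 0.119 for ID3 and 0.123 for BMP2, limma). It was 0.029 to 0.261 TPM in clone 1.1, 1.74, 0.015 and 0.122 in clone 1.2, 8.99, 15.2 and 9.04 in 4.1 and 2.18, 0.727 and 3.82 in 4.2, overlapping with 4.2, and it lost its call without library 2 or library 3 of clone 1.2. The receptors BMPR1A, BMPR2 and ACVR1 and the signal carriers SMAD1 and SMAD5 had log2 differences between -0.16 and 0.24 and were not called. GREM1, a BMP antagonist, was high in clone 1.2 alone, with a clone mean of 153 TPM against 2.32, 4.38 and 1.99 in clones 1.1, 4.1 and 4.2. INHBB, an activin subunit, was the 1 gene called among 17 of the TGF-beta list, beside 0.762% of all genes called higher in R4. It was at 0 to 8.99 TPM in R1 and 13.7 to 40.2 in R4 without overlap (adjusted p = 0.197 with the clone as a random effect, limma).

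Of 20 targets and feedback inhibitors of the ERK pathway, 2 were called higher in R4 (EGR1 and LIF, the latter also in the inflammatory list) and 0 higher in R1, beside 0.762% and 0.375% of all genes, with a median log2 difference of -0.44. Neither was called with the clone as a random effect (adjusted p = 0.243 and 0.186, limma). EGR1, an immediate early transcription factor, was 14.3, 16.7, 12.1, 9.17 and 6.37 TPM in clone 1.1, 37.3, 11.6 and 3.04 in clone 1.2, 55, 47.8 and 42.3 in 4.1 and 86.8, 35.8 and 54.1 in 4.2. Library 1 of clone 1.2 reached the lowest R4 library. The feedback genes SPRY4, DUSP6 and IER3 had clone means below those of both R4 clones in both R1 clones, with gaps of 0.90, 0.60 and 0.84, under the threshold. MYC and MYCN are related growth regulators. MYC had clone means of 38.9 and 8.98 TPM in R1 and 3.59 and 3.94 in R4 (gap 0.86, called higher in R1 without library 3 of clone 1.2). MYCN, chosen after its values were seen, was 1.26, 0.704, 0.673, 0.456 and 0.718 TPM in clone 1.1, 3.91, 1.59 and 2.04 in 1.2, 17.6, 10.5 and 13.3 in 4.1 and 24.3, 9.59 and 17.3 in 4.2 (log2 difference -2.69 ± 0.21, adjusted p = 2.21e-06, limma).

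Most of the other 15 widest gaps on the R4 side belonged to genes outside the lists. MRGPRX3, an orphan receptor, was 28.7, 22.4, 16.9, 15.8 and 12.4 TPM in clone 1.1 and 196 to 393 in R4, but 438, 14 and 0.443 in clone 1.2, whose first library was above every R4 library. CRIP1, a small LIM-domain protein, was 0.179 to 3.76 TPM in R1 and 21.6 to 52 in R4. GJA5, a gap junction protein, was 0.012 to 4.32 in R1 and 10.8 to 42.3 in R4. ROBO4, a receptor known from endothelium, was 0.085 to 2.19 in R1 and 6.15 to 29.98 in R4. CRIP1, GJA5 and ROBO4 did not overlap between regions. TINAGL1, a matrix protein, was 3.75 to 41.2 TPM in R1 and 100.4 to 218 in R4. HSD17B3, a steroid dehydrogenase, was 0 to 9.11 and 15.5 to 33.9 TPM in the same order. REM1, FHAD1 and TAFA3 were the remaining 3 of the 15, at up to 32.3, 16 and 38.5 TPM in the mean of clone 4.1.

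Galectins and S100 proteins, small sugar- and calcium-binding proteins, were called in both directions. Of 17 tested, 3 were called higher in R4 (LGALS7, LGALS7B and S100A2) and 1, LGALS3, higher in R1 (0.762% and 0.375% of all genes). LGALS7 and LGALS3 were still called with the clone as a random effect, and S100A2 (adjusted p = 0.219) and LGALS7B (0.107, limma) were not. S100A2, known from stratified epithelium, was 1.04, 9.15, 8.3, 7.93 and 2.41 TPM in clone 1.1, 4.88, 3.67 and 4.22 in clone 1.2, 23.9, 147 and 14.6 in 4.1 and 40.03, 45.8 and 18.6 in 4.2, without overlap. LGALS7B was 0 to 9.38 TPM in R1, 66.8 to 77.7 in 4.1 and 12.7 to 35.9 in 4.2. LGALS7 is its near-identical copy, so how reads split between the pair is uncertain. SFRP2, a secreted modulator of Wnt signalling chosen after its values were seen, was 0 to 1.05 TPM in R1, 55.2, 33.9 and 51.3 in 4.1 and 7.81, 2.55 and 4.14 in 4.2, and ADGRF1, an adhesion receptor chosen likewise, was 0 to 1.13 in R1 and 2.85 to 19.8 in R4.

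All 24 genes of sterol and fatty acid synthesis were tested, and none was called in either direction. Their median log2 difference was 0.40, and 14 had both R1 clone means above both R4 clone means (19.8% of all genes did) against 5 below (15.1%). SCD, a desaturase, was 199 to 393 TPM in clone 1.1, 258 to 291 in 1.2 and 115 to 187 in R4, without overlap, with a gap of 0.75. HMGCS1, an early enzyme of the sterol pathway named after its values were seen, was 84.4, 71.5, 34.8, 52.4 and 92.4 TPM in clone 1.1, 54.7, 75.8 and 23.3 in 1.2, 22.9, 19.8 and 32.5 in 4.1 and 30.1, 12.9 and 16.9 in 4.2, and was called higher in R1 without library 3 of clone 1.2. FASN, the most abundant member, was 138 to 438 TPM in R1 and 206 to 341 in R4. FADS2, another desaturase, had clone means of 126 and 170.0 TPM in R1 and 287 and 273 in R4, with the R4 clones higher and a gap of 0.65.

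**Figure D4:**
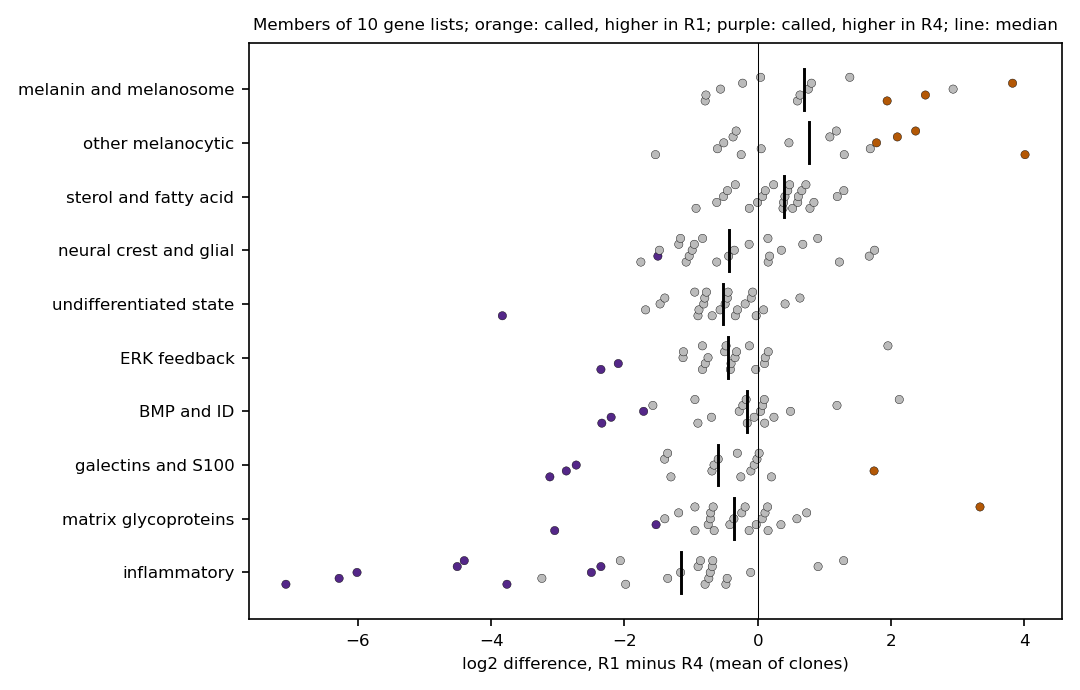
Log2 difference, R1 minus R4, of each tested member of 10 gene lists, with orange for genes called higher in R1, purple for genes called higher in R4, grey for the rest and a black line for the median of a list. The medians run from -1.16 (inflammatory) to 0.78 (other melanocytic), and every list has members on both sides of 0.

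No gene was called in the lists for AP-1, TEAD and YAP factors (20 tested), retinoid signalling (20), interferon response (26), MHC class I (16), MHC class II (14), collagens (20), proteases and their inhibitors (22), cell cycle (32), Wnt (30), hypoxia and glycolysis (23) or cancer-testis antigens (19). Their median log2 differences lay between -0.23 and 0.22. The summed MHC class II level ranged from 1068 to 25852 TPM over the R1 libraries and from 6879 to 14679 over the R4 libraries. STRA6, a retinol receptor chosen after its values were seen, was at most 0.737 TPM in clone 1.1, 9.67, 4.83 and 26.8 in 1.2, 45.3, 32.7 and 31.5 in 4.1 and 14.5, 9.41 and 74 in 4.2. It was called higher in R4 without library 3 of clone 1.2. Among abundant members of these lists, SERPINE2, a protease inhibitor, was 263 to 2383 TPM in R1 and 2486 to 3293 in R4, and TIMP3, an inhibitor of metalloproteases, was 1587 to 2889 TPM in clone 1.1, 508 to 1036 in clone 1.2 and 1303 to 2305 in R4. MX2, IFNGR2, FOSL1 and WWTR1, the abundant interferon-related and AP-1 or YAP genes, were not called.

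Of 10 fibroblast markers, all tested, 1 (FAP) was called, higher in R1 (0.375% of all genes were), and their sum was 525 to 918 TPM in R1 and 560 to 761 in R4. Of 9 keratinocyte markers 4 were tested and 1 (KRT14) was called, higher in R4 (0.762% of all genes were), at 0 to 0.963 TPM in R1 and 1.35 to 3.65 in R4. The keratinocyte sum was 43.1 to 70.6 TPM in R1 and 62.7 to 89.3 in R4, with KRT5, KRT1, TP63, DSG3 and EPCAM not passing the filter. Of 7 endothelial markers 2 were tested, and of 9 immune markers 1, and none was called, with PTPRC, CD3E and CD14 not passing the filter. The part of other cells in the results was not tested. In bulk RNA, fewer cells of a type and less RNA per cell cannot be told apart.

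On chromosomes 1 and 11 the median log2 difference lay below that of all genes in each of the 4 pairs of an R1 and an R4 clone. Chromosome 11, with 881 tested genes, held 14 of the 124 genes called higher in R4 (1.59% of its genes) and 1 of the 61 called higher in R1, and its median log2 difference, less that of all genes, was -0.58, -0.28, -0.51 and -0.21 in the pairs 1.1 and 4.1, 1.1 and 4.2, 1.2 and 4.1, and 1.2 and 4.2. SAA1, SAA2, MRGPRX3 and ROBO4 lie there. The first 3 are close together: MRGPRX3 at chr11:18120955-18138480, SAA2 at chr11:18239223-18248643 and SAA1 at chr11:18266174-18269977. On the R1 side TFAP2A (chr6:10393186-10419659) and LINC00518 (chr6:10429255-10434874) are close together too. Calls at such places may not be separate events, which was not tested. Chromosome 1, with 1626 genes, held 20 R4-higher calls (1.23%) and 4 R1-higher calls, and its medians were -0.15, -0.12, -0.17 and -0.15 in the same order. On chromosomes with medians near 0 over the main contrast, the shares called higher in R4 varied. They were 1.70% on chromosome 4 (median -0.03), 1.60% on chromosome 20 (0.04) and 1.22% on chromosome 2 (-0.02). Lower shares were 0% on chromosome 12 (0.0006), 0.514% on 10 (0.02), 0.599% on 17 (0.01) and 0.546% on 21 (-0.007). Chromosomes 22 (-0.23) and 15 (-0.14) had 1.29% and 1.28%. Whether shifts and calls go together was not tested. Other shifts followed single clones. On chromosome 22, where SOX10 lies, the median was -0.48 and -0.46 in the pairs with clone 1.2 and 0.04 and 0.05 in the pairs with clone 1.1. On chromosome 3, where MITF lies, it was 0.49 and 0.18 with clone 1.2 and 0.05 and -0.23 with clone 1.1. DNA copy number was not measured, and its part in the calls was not tested. After each chromosome was centred in each library, 52 genes (0.32%) were called higher in R1 and 125 (0.768%) higher in R4, with SAA1, SAA2, MRGPRX3 and ROBO4 among them. Centring takes out 1 median per chromosome, so it cannot remove a shift of only part of a chromosome.

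**Figure D5:**
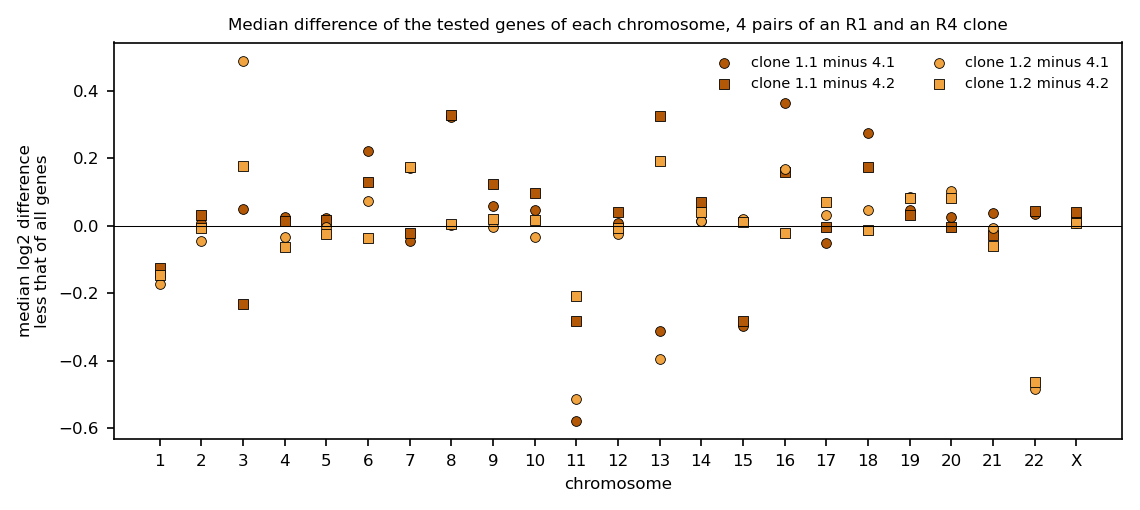
Median log2 difference of the tested genes on each chromosome, less the median of all genes, for the 4 pairs of an R1 and an R4 clone (dark orange for clone 1.1, light orange for clone 1.2, circles for 4.1, squares for 4.2). On chromosome 11 all 4 pairs lie between -0.58 and -0.21, and on chromosome 22 only the pairs with clone 1.2 lie below -0.4.

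With the clone as the unit, the comparison has 2 R1 and 2 R4 values per gene. limma on these 4 clone means called 0 genes at an adjusted p under 0.05 (smallest adjusted p = 0.0587), and 944 genes (5.8%) had an unadjusted p under 0.05. An exact permutation of 2 against 2 cannot go below p = 0.333. The clone was also fitted as a random effect over the 14 libraries. The same separation and gap were required, so these calls were drawn from the same separated genes. limma then called 16 genes higher in R1 (0.0983%) and 32 higher in R4 (0.197%), all 48 among the 185. On the R1 side these held TFAP2A (adjusted p = 0.00689), FAP (0.00285), DMKN (0.00268), PLXND1 (0.0119), PROS1 (0.00268), LGALS3 (0.0488), NEFL (0.0376) and ZNF720 (0.000288). On the R4 side they held PTGS2 (0.000582), SAA1 (0.0461), SAA2 (0.0429), FBLN1 (0.0376), MYCN (0.00781), CRIP1 (0.000974), GJA5 (0.00759) and SFRP2 (0.0254).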

How the data were processed

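RNA-seq of WM115 cells was compared in 14 libraries of 4 clones: 8 with the genotype R1_del and 6 with R4_del. RNA was selected by poly-A and primed with random hexamers, per the labels' protocols. The authors deposited gene-level TPM values, and GRCh38 and DRAGEN are named in the submitters' processing notes. Versions and annotation release are not given in the sources used here. 6 columns of values in the table match no sample listed here and were left out.

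TPM were turned into log2(TPM + 1), and genes with at least 1 TPM in at least 3 of the 14 libraries were kept (16275). limma 3.58.1 in R 4.3.3 was fitted with 1 coefficient per clone. The contrast was the mean of clones 1.1 and 1.2 less that of clones 4.1 and 4.2, with Benjamini-Hochberg adjustment. Calls needed an adjusted p under 0.05 and a gap of at least 1. The script was tested on simulated data. Without counts the depth is unknown, so no counting interval can be given. Gene positions are from GENCODE 29 (GRCh38), which placed 58453 of 60671 identifiers, and promoters are from RefSeq (GRCh38.p14).

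By rule, named genes were SOX10, MITF and SOX9, the 15 called genes of widest gap in each direction and up to 6 called members of each list. For 6 lists, abundant members were named in their place. IL1B and CCL2, called members beyond the 6, fall outside this rule. So do list members given as examples by clone means, gaps or log2 differences, such as AXL, BCL2A1, C3, IL1A, GREM1, MYC, SPRY4, DUSP6, IER3 and FADS2. These are to be read as picked with the values known. The narrowing to 6 lists and the genes marked in the text were chosen after the values were seen. The comparison and the lists were chosen with earlier results of these data known. Alternatives covered the scaling, the pseudocount, the filter, the minimum gap, a replicate block, a random clone effect, chromosome centring, and leaving out each library or clone.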

Additional observations from a re-analysis of the deposited data

Results flagged for a closer look

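In clone 1.1, the 1 clone with enough libraries for a test of single libraries (Dixon's test at the 95% level), 5 of 80 genes had a library far from the other 4, and chance flags about 1 in 20. Library 3 was low for ACP5 (21.9 TPM) and MLANA (0.658 TPM). Library 1 was apart for EGR2 (1.56 TPM) and FHAD1 (2.27 TPM), and library 5 for REM1 (0.464 TPM). ACP5, EGR2, FHAD1 and REM1 are among the called genes.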

How the results depend on the processing

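Of 58 called genes followed, none changed direction under 34 alternatives. The call itself sets much of this. It needs both R1 clone means on one side of both R4 clone means, so leaving out a clone cannot reverse it, nor can another minimum gap. Counted over genes and settings, the result was the same in 1772 cases and weaker in 190. The calls over libraries, 61 higher in R1 and 124 higher in R4, became 127 and 214 with a pseudocount of 0.1, 10 and 29 with a minimum gap of 2, 1681 and 1458 with none, 17 and 47 in the 8 libraries of high mitochondrial share, and 16 and 32 with the clone as a random effect. Leaving out clone 1.1 gave 587 and 293, clone 1.2 247 and 415, clone 4.1 115 and 213, and clone 4.2 145 and 333. Leaving out 1 library gave 38 to 85 higher in R1 and 92 to 157 higher in R4. The lowest R1 count came without library 2 of clone 1.2, when TYRP1, PMEL, SLC24A5, ABCB5, GPNMB, LAMA1, LGALS3, CD36, LYST, BMP2 and IL1B lost their calls, and the R4 count was lowest without library 3. Clone 1.3, if counted as R1, gave 52 higher in R4, and if counted as R4, 0 higher in R1 and 45 higher in R4. Separated clone means numbered 5694 (R1 higher) and 4499 (R4 higher) with no filter and 10 and 29 with a gap of 2, and under median-of-ratios scaling they were 2659 and 2855. limma over clones called 2 genes under median-of-ratios scaling and 2 under quantile normalization.

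The replicate block gave 56 and 112 calls, and CSPG4 and KRT14 lost theirs. Same-numbered libraries did not deviate together (correlations from -0.47 to 0.30), so the numbers were taken as names only.

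Genes that changed sign had not been called. FASN (0.07) ranged from -0.033 to 0.28 when 1 library was left out, with values below 0 without library 1 or 2 of clone 1.2, and was -0.10 without clone 1.1, -0.0435 without clone 4.2 and -0.20 with clone 1.3 as R4. FOSL1 (-0.15) ranged from -0.29 to 0.040 when 1 library was left out, above 0 without library 3 of clone 1.2, and was 0.038 with clone 1.3 as R4 and 0.26 with chromosomes centred. Without clone 1.2, ID2 (-0.69) became 0.23, IL6 (1.29) -1.44, S100B (-1.18) 0.25 and TIMP3 (-0.46) 0.31. The causes were not tested.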

Other observations

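Of the 48 genes called with the clone as a random effect, several had not been described, and some of the abundant protein-coding ones are given here, chosen after their values were seen. In each of them all R1 libraries lay on one side of all R4 libraries. CTNNBIP1, an inhibitor of beta-catenin, had clone means of 41.8 and 47.2 TPM in clones 1.1 and 1.2 against 185 and 267 in clones 4.1 and 4.2 (log2 difference -2.36, adjusted p = 0.0192, limma with the clone as a random effect). ATG16L1, a component of the machinery that builds autophagosomes, had means of 24.0 and 35.3 TPM in the R1 clones and 92.6 and 87.6 in the R4 clones (log2 difference -1.60, adjusted p = 0.00401). FAM20A, a partner of the secretory kinase FAM20C, had means of 10.7 and 19.2 TPM in R1 and 56.0 and 81.6 in R4. CST7 (cystatin F, an inhibitor of lysosomal proteases) had means of 8.71 and 22.6 TPM in R1 and 68.7 and 47.4 in R4.

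On the R1 side, VAT1, a membrane-associated oxidoreductase, had means of 181 and 156 TPM in clones 1.1 and 1.2 against 74.3 and 59.4 in clones 4.1 and 4.2 (log2 difference 1.32, adjusted p = 0.010 with the clone as a random effect). SH3BP5, a regulator of the GTPase RAB11, had means of 37.7 and 67.7 TPM in R1 and 5.53 and 12.7 in R4. CABLES1, a cofactor of cyclin-dependent kinases, had means of 28.2 and 14.5 TPM in R1 and 5.90 and 3.34 in R4.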
